A study of Mus musculus with 6 samples.

Results

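The genes described here encode ChREBP (Mlxipl) and the basic helix-loop-helix leucine zipper proteins of the MAX and MLX network around it. They are the partner of ChREBP (Mlx), its paralog MondoA (Mlxip), the shared partner of the MYC side of the network (Max), and the repressor or antagonist partners Mnt, Mga, Mxd1, Mxd3, Mxd4 and Mxi1. The members were chosen by gene symbol, and all 10 were found among the 48967 genes for which counts could be summed. They were followed in RNA-seq libraries of mouse 2-cell embryos from a study of how embryos respond when their lipid droplets are removed. Both groups were wild type embryos of the cross F1 (C57Bl/10 X CBA/H), grown from the zygote in KSOM medium without fatty acids and collected at day 2. In the delipidated group the zygotes had been centrifuged in medium with cytochalasin B, and a second time with sucrose added, and the displaced lipid droplets were aspirated through an opening made in the zona pellucida with a laser. The treatment label of the control group names in vitro culture alone, so the steps of the manipulation and the loss of lipid cannot be told apart. Each group had 3 libraries, and every library was a pool of 3 embryos prepared without prior RNA extraction. The embryos of both groups came from one common collection of zygotes, so p-values measure the spread between pools within that collection. Counts assigned to genes came to 12164963, 16165958 and 12980787 in control replicates 1, 2 and 3 and to 20059460, 16332103 and 14683741 in delipidated replicates 1, 2 and 3. The number of genes with counts was 22855, 22437 and 20582 in control pools and 17091, 19408 and 20158 in delipidated pools. It was lower in each delipidated library and lowest in delipidated replicate 1, which had the most counts, and its part in the differences between the groups was not tested. Counts of a gene are summed over its exonic parts, and CPM are those counts scaled to a common library size by TMM.

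ChREBP and MondoA are glucose-responsive activators that bind carbohydrate response elements, pairs of E-boxes, as heterodimers with MLX, and in liver and adipose tissue ChREBP drives glycolytic and lipogenic genes. MAX is the obligate partner of the MYC oncoproteins, and it also pairs with MXD proteins, MNT and MGA, which repress the same E-box genes through the SIN3 histone deacetylase complex or, in the case of MGA, through a Polycomb complex. MNT and some MXD proteins can pair with MLX as well, which ties the nutrient-sensing and the growth-related arms of the network to shared partners.

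The embryonic stage was checked first. All 9 matched genes of a list of 10 genes of the 2-cell stage were counted in every library, among them Zfp352, Zscan4a and Zscan4d, and Dux was not matched to a gene identifier. Zfp352, the most abundant of them, had 120.5, 54.5 and 88.1 CPM in control pools and 42.2, 86.2 and 144 CPM in delipidated pools. All 10 oocyte and maternal genes were also counted in each library, with Oosp1 between 338 and 570.5 CPM, Bmp15 between 123 and 389 CPM and Nlrp5 between 151 and 255 CPM. The median log2 fold change of delipidated over control embryos was 0.051 for 9 tested 2-cell genes and 0.16 for 10 tested oocyte genes, beside a median of -0.00073 over all 16020 genes tested.

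Markers of other cells were checked as well, and some moved with the groups. The 6 stromal markers summed to 15.8, 13.7 and 27.3 CPM in control pools and 0, 0 and 3.81 CPM in delipidated pools. This sum was higher in every control library, 4 of the markers were counted in each control library against 0, 0 and 2 in delipidated replicates 1, 2 and 3, and the most abundant, the intermediate filament gene Vim, was at 0 in each delipidated library, as were Col1a1, Col3a1 and Lum. Only Vim and Col1a1 were separated between the groups by themselves, with all delipidated libraries lower, which held for 5.05% of all tested genes. Col1a2 overlapped, and Dcn, with 27 counts in delipidated replicate 3, was at 0 in the other libraries. Vim was called lower by DESeq2 and by edgeR without its filter on low counts. In these fits 0.252% of 19443 and 0.0969% of 30967 genes were called in either direction. Neither edgeR with the filter nor limma-voom called Vim, and with its delipidated libraries at 0 no fold is given. The 6 leukocyte markers, with Csf1r as the most abundant, summed to 9.03, 8.89 and 8.51 CPM in control pools and 7.01, 3.50 and 5.58 CPM in delipidated pools. The groups did not overlap in this sum, but of the single genes only Lyz2, at 0 in the delipidated libraries, was separated. Lyz2 was below the filter on low counts, so the share of 5.05% over tested genes does not cover it. Tyrobp had 5 counts in control replicate 1 and 0 elsewhere, Csf1r was highest in delipidated replicate 3, Cd74 ranged from 0 to 4.96 CPM in overlapping groups, and Cd52 had a positive log2 fold change of 0.87 (SE 1.64). The 10 cumulus and granulosa markers, with Amhr2 as the most abundant and Ptx3 and Foxl2 at 0 in all libraries, summed to 17.5, 27.2 and 80.0 CPM in control pools and 12.05, 31.02 and 13.1 CPM in delipidated pools. Of 5 oviduct epithelium markers, led by Ovgp1, the sum was 0.591, 6.53 and 2.13 CPM in control pools and 9.33, 2.21 and 3.60 CPM in delipidated pools. Both of these sums overlapped between the groups, and Cyp11a1, with 653 counts in control replicate 3 and 0 in each delipidated library, made up most of the highest cumulus and granulosa sum. Cyp11a1 rested on that library and was called lower by edgeR when low counts were not filtered, was below the filter that edgeR and limma-voom shared, and got no p-value from DESeq2. Tnfaip6, between 0.759 and 6.76 CPM, and Star, between 0 and 6.23 CPM, followed Amhr2 in mean CPM among the tested markers of this list. Whether these counts came from other cells or from the embryos themselves cannot be told from such pools. Fewer cells of a type and less RNA per cell cannot be told apart either. The part of the stromal and leukocyte markers in the differences between the groups was not tested. Nor was the part that the lower number of genes with counts in delipidated libraries has in their zeros.

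Mlxipl, the gene of ChREBP itself, had the highest fitted increase of the members in delipidated embryos. The gene (ENSMUSG00000005373, chromosome 5 from 135089890 to 135138382 on the forward strand in GENCODE M21 on GRCm38, the source of all gene positions here) had 64.3, 45.5 and 50.8 CPM in control pools and 122, 196 and 89.4 CPM in delipidated pools. Every delipidated library lay above every control library, and delipidated replicate 2 was the highest and replicate 3 the lowest of its group. The group means differed 2.54-fold, and the fitted log2 fold change was 1.34 (standard error, SE, 0.31). Of the 10 members, 0 were called by edgeR at an adjusted p under 0.05 and a log2 fold change beyond 1, against 0.00% of all 16020 genes tested. DESeq2, with its own default filter on mean count, called 1, Mlxipl, against 0.252% of 19443 genes with an adjusted p. The edgeR fit without its filter on low counts also called 1, Mlxipl, against 0.0969% of 30967 genes. By limma-voom 0 were called, against 0.00% of the 16020. At an unadjusted p under 0.05 there were 2 members higher in the delipidated embryos, Mlxipl and Mxd4, where 1.15% of all tested genes were, and 0 lower, where 1.74% were. The same 2 genes had all delipidated libraries above all control libraries, which held for 3.81% of tested genes, and 1 member, Mxd3, had them all below, which held for 5.05%. The members with an unadjusted p under 0.05 changed when single libraries were left out. For Mxd4 edgeR's unadjusted p was 0.0655 without control replicate 2 and 0.0502 without delipidated replicate 3. For Max it was 0.0406 without delipidated replicate 1. The members' median log2 fold change was 0.016, beside -0.00073 over all tested genes, with 5 values above and 5 below 0. Of these, Mlx, Mnt, Mga, Mxd1 and Mxi1 changed sign in at least 1 alternative setting.

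**Figure D1:**
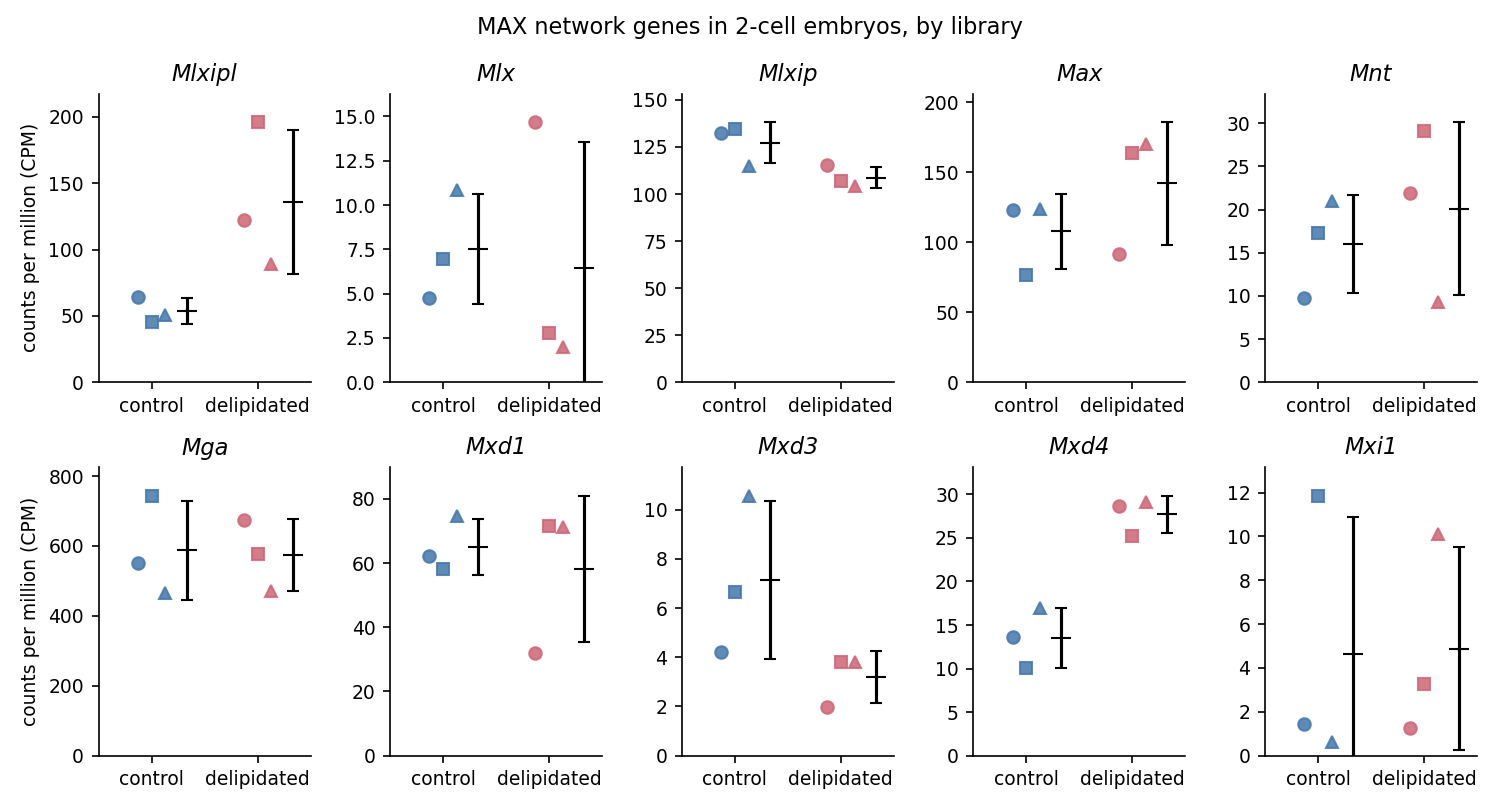
Level of each of the 10 genes in library-scaled counts (CPM, vertical axes from 0) in the 3 control libraries (blue) and the 3 delipidated libraries (red); circle, square and triangle stand for replicates 1, 2 and 3, and the black bar gives the mean and SD of a group (bars are clipped at 0). Mlxipl and Mxd4 lie higher in all delipidated libraries, Mxd3 lies lower in all of them, and the groups of the other 7 genes overlap.

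MondoA, the paralog of ChREBP that responds to glucose 6-phosphate in many tissues, had groups that were not separated. Mlxip (ENSMUSG00000038342, chromosome 5 from 123394798 to 123457932 on the forward strand) had 133, 134 and 115 CPM in control pools and 115, 107 and 104 CPM in delipidated pools. The values were close together, and the lowest control library was just below the highest delipidated one, so the groups overlapped. Its log2 fold change was -0.23 (SE 0.22), and it stayed negative, from -0.33 to -0.18, over the 15 alternative settings. Within a library the ratio of Mlxipl to Mlxip counts does not depend on the scaling. On the log2 scale it was -1.04, -1.56 and -1.18 for control pools and 0.086, 0.88 and -0.22 for delipidated pools. Mlxipl thus had fewer counts than Mlxip in each control library and more in delipidated replicates 1 and 2, and the groups did not overlap. The mean difference was 1.51 (exact two-sided permutation p = 0.1, the smallest that 3 against 3 libraries allow; 0.15 after Benjamini-Hochberg adjustment over the 3 ratios computed). Against the summed counts of the other 9 members the log2 ratio of Mlxipl was higher by 1.27 in the delipidated libraries.

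The counts along Mlxipl were divided among 36 exonic parts, numbered in the direction of transcription. Of the 35 parts with counts, 34 had a higher mean CPM in the delipidated group. In 11 of them every delipidated library lay above every control library, and in 0 every one lay below; over all genes this held for 2.67% and 3.64% of the 267588 exonic parts with counts. Neighbouring parts share reads and are not independent. A division of the gene after part 18 was chosen after its values were seen. Parts 2 to 18, from 135106891 to 135132861, had 44.0, 34.5 and 37.1 CPM in control pools and 95.1, 108 and 53.2 CPM in delipidated pools. Parts 19 to 36, from 135133076 to 135138382, had 20.3, 11.01 and 13.7 CPM in control pools and 27.3, 88.1 and 36.1 CPM in delipidated pools. The groups were apart in both stretches, and delipidated replicate 2 alone was far above the rest in the second. Part 34, from 135135481 to 135135738 and also singled out by its values, had 0 counts in each control library, whereas delipidated replicates 1, 2 and 3 had 58, 16 and 16.

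**Figure D2:**
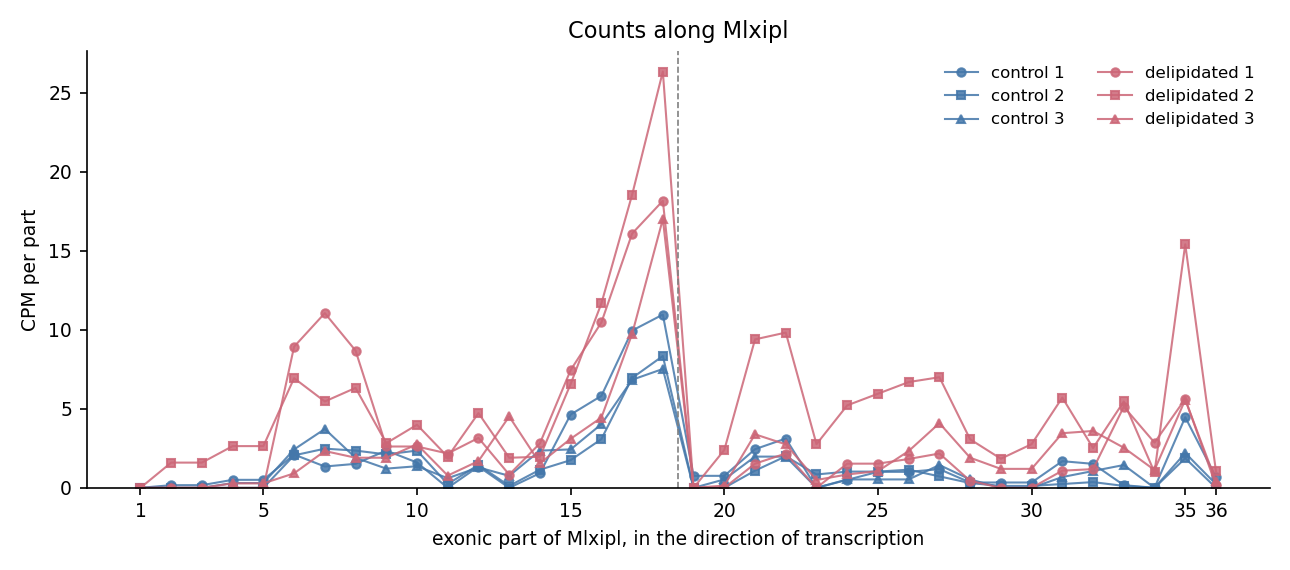
CPM of each of the 36 exonic parts of Mlxipl (horizontal axis, in the direction of transcription) in every control (blue) and delipidated (red) library; the dashed line marks the division after part 18. Part 1 has no counts in any library, and parts 17 and 18 hold the highest values in each library.

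Mlxipl has alternative first exons, from which the long form, ChREBP alpha, and the shorter and more active form, ChREBP beta, are made. The upstream first exon of the beta form is part 1, and the downstream one of the alpha form is covered by parts 2 to 6. Part 6 had 91 counts over the control and 307 over the delipidated libraries, whereas part 1 had 0 in both. A count of 0 allows up to 3 counts per group. Set against the counts of part 6 alone, this is 3.30% in the control and 0.977% in the delipidated embryos. These limits cover counting error alone and are not corrected for length, which is 171 bases for part 1 and 298 for part 6. RNA from the upstream exon was therefore not detectable at this depth. The 250 bases before each start are shown because one start was counted and the other was not. They are the RefSeq sequences of GRCm38.p6 on the forward strand, chr5:135106641-135106890 for the alpha and chr5:135089640-135089889 for the beta start, with the E-box CACGTG in capitals where present.
alpha start: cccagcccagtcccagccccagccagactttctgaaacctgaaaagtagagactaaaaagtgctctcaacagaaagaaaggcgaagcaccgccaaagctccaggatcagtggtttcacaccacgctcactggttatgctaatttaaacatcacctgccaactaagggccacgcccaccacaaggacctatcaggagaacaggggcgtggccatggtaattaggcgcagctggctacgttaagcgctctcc
beta start: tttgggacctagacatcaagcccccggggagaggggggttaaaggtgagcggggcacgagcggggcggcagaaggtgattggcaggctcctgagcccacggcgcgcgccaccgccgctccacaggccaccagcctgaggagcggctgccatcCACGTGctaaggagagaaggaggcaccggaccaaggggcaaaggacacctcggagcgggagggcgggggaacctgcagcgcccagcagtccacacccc
The share of G and C was 53.2% before the alpha and 69.2% before the beta start, and only the latter window holds the E-box, 1 time.

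MLX is the partner that ChREBP and MondoA need to bind DNA. Mlx (ENSMUSG00000017801, chromosome 11 from 101087277 to 101092207 on the forward strand) had 4.72, 6.95 and 10.9 CPM in control pools and 14.7, 2.76 and 1.98 CPM in delipidated pools. Delipidated replicate 1 was the highest and the other delipidated libraries were the lowest of all, so the groups overlapped over their whole range. Fitted over all libraries, its log2 fold change was -0.21 (SE 0.79), and it was positive without control replicate 3 (0.15), without delipidated replicate 2 (0.15) or without delipidated replicate 3 (0.21). Without delipidated replicate 1 it was -1.66. The log2 ratio of Mlxipl to Mlx counts was higher by 2.00 in the delipidated libraries, but the groups overlapped (exact two-sided permutation p = 0.2, also 0.20 after adjustment over the 3 ratios). This difference was 2.92 without delipidated replicate 1 and 1.38 without delipidated replicate 2. The libraries covered different ends of this gene. The 6 parts of the first exon, from 101087277 to 101087529, had 92 counts in control replicate 3, 6 in delipidated replicate 3 and 0 in the other libraries, counts that largely repeat the same reads on adjoining parts. The last 6 parts, from 101089662 to 101092207, had 15, 96 and 14 counts in control pools and 269, 42 and 14 counts in delipidated pools. Of the 19 parts of Mlx, 0 were counted in all 6 libraries, and 17.4% of its counts lay on a part that overlaps Psmc3ip on the other strand.

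MAX dimerises with MYC, MNT, MGA and the MXD proteins. Max (ENSMUSG00000059436, chromosome 12 from 76937269 to 76962201 on the reverse strand) had 123, 76.7 and 124 CPM in control pools and 91.7, 164 and 171 CPM in delipidated pools. Delipidated replicates 2 and 3 were above the control libraries and delipidated replicate 1 was among them. For Max the log2 fold change was 0.40 (SE 0.30), positive in all 15 alternative settings, from 0.21 to 0.63. All 5 exonic parts of Max were counted in each library. One of them, from 76961263 to 76961289, is the exon of 27 bases by which the longer and the shorter MAX protein differ at their N-terminus. It had 21, 21 and 12 counts in control pools and 54, 10 and 67 counts in delipidated pools. Relative to the mean counts of the parts on both sides this was 5.82%, 8.97% and 3.39% in the control and 12.2%, 1.70% and 12.7% in the delipidated libraries. These percentages are not corrected for length, which is 108 and 259 bases for the parts on both sides. They do not give the share of RNA that holds the exon. The percentage was highest in delipidated replicates 1 and 3 and lowest in delipidated replicate 2, without a separation of the groups.

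MGA carries a T-box besides its MAX-binding domain and is the scaffold of a Polycomb complex, PRC1.6, which keeps germline genes silent in embryonic stem cells. Mga (ENSMUSG00000033943, chromosome 2 from 119897228 to 119969581 on the forward strand) had 552, 743 and 467 CPM in control pools and 674, 577 and 469.8 CPM in delipidated pools. The groups overlapped, with control replicate 2 highest and control replicate 3 lowest. Its log2 fold change was -0.034 (SE 0.21), and it was positive without control replicate 2 (0.17) or without delipidated replicate 3 (0.087). Of 10 other subunits of the complex 9 were tested, since Ring1, with at most 13 counts in a library, was below the filter on low counts. By edgeR, DESeq2 and limma-voom 0 were called, 0 had in edgeR an unadjusted p under 0.05 (over all genes 0.00% were called, and 1.15% were higher and 1.74% lower at that p), and the median log2 fold change was 0.051, beside -0.00073 over all genes tested. Rybp, which helps to ubiquitinate histone H2A, was between 215 and 268 CPM, the WD-repeat protein gene Wdr5 between 157 and 283 CPM and L3mbtl2, which encodes an MBT-domain protein, between 170.1 and 259.7 CPM. Together the subunits had 1481, 1361 and 1280.4 CPM in control pools and 1400.3, 1424 and 1351 CPM in delipidated pools, with overlapping groups.

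MNT, a repressor found in most cells that antagonises MYC and can pair with either MAX or MLX, was counted less often. Mnt (ENSMUSG00000000282, chromosome 11 from 74830920 to 74845725 on the forward strand) had 9.79, 17.2 and 21.0 CPM in control pools and 22.0, 29.1 and 9.32 CPM in delipidated pools. Delipidated replicate 3 was the lowest and delipidated replicate 2 the highest library, and control replicate 1 was near the former. For Mnt the log2 fold change was 0.33 (SE 0.50); without delipidated replicate 2 it was -0.033, and on the single part with the most counts 0.78.

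The MXD proteins, formerly called MADs, pair with MAX and recruit the SIN3 corepressor as cells leave the cell cycle and differentiate. Of the 4 genes, Mxd4 was the one with each delipidated library above each control library. Mxd4 (ENSMUSG00000037235, chromosome 5 from 34173883 to 34187720 on the reverse strand) had 13.7, 10.0 and 17.0 CPM in control pools and 28.7, 25.2 and 29.2 CPM in delipidated pools. The lowest delipidated library was above the highest control library, and the spread within the delipidated group was small. The log2 fold change was 1.03 (SE 0.39; edgeR's unadjusted p = 0.0214, adjusted p = 1.00 over all genes tested), and over the 15 alternative settings it ranged from 0.86 to 1.22, with adjusted p-values from 0.365 to 1.00. All 12 exonic parts of Mxd4 with counts had a higher mean CPM in the delipidated group. In 4 of them, parts 5 to 8, every delipidated library was above every control library. Over all genes this held for 2.67% of exonic parts with counts. Parts 5 to 8 are neighbours in the 3' stretch, and neighbouring parts share reads and are not independent. A division into a 3' and a 5' stretch was chosen after the values were seen. The 8 parts nearest the 3' end, from 34173883 to 34178924, had 9.45, 6.95 and 13.99 CPM in control pools and 27.1, 21.9 and 20.8 CPM in delipidated pools. The 6 parts towards the 5' end, from 34179744 to 34187720, had 4.22, 3.08 and 2.96 CPM in control pools and 1.63, 3.32 and 8.33 CPM in delipidated pools. The groups were apart at the 3' end and overlapped at the 5' end, where only delipidated replicate 3 was above the control libraries.

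Mxd3, expressed during S phase in neural and other precursors, had the opposite direction. Mxd3 (ENSMUSG00000021485, chromosome 13 from 55325168 to 55329823 on the reverse strand) had 4.22, 6.65 and 10.6 CPM in control pools and 1.98, 3.81 and 3.81 CPM in delipidated pools. All delipidated libraries were below all control libraries. The log2 fold change was -1.16 (SE 0.70; edgeR's adjusted p = 1.00), and in the alternative settings it was between -1.41 and -0.77, with adjusted p-values from 0.718 to 1.00. This separation rested on few counts and on a shared stretch. Of all Mxd3 counts 52.3% lay on the last exonic part, from 55325168 to 55325481, which overlaps Prelid1 on the other strand, and reads of both genes cannot be told apart there. Without that part Mxd3 had 13, 49 and 92 counts in control pools and 0, 35 and 28 counts in delipidated pools, and the groups overlapped.

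Mxd1, the founding member of the MXD family, had 62.3, 58.1 and 74.7 CPM in control pools and 32.0, 71.6 and 71.1 CPM in delipidated pools (ENSMUSG00000001156, chromosome 6 from 86647042 to 86669161 on the reverse strand). Delipidated replicate 1 was low and the other 5 libraries were close to each other. Its fitted log2 fold change of -0.16 (SE 0.34) became 0.13 without that library. Mxi1, the gene of a MYC antagonist also known as MXD2, had 17, 196 and 8 counts in control pools and 26, 53 and 143 counts in delipidated pools (ENSMUSG00000025025, chromosome 19 from 53310518 to 53375810 on the forward strand). Control replicate 2 and delipidated replicate 3 held most of them, and the groups overlapped. The log2 fold change was 0.066 (SE 1.10), so the error was far larger than the value; without control replicate 2 it was 2.25 and without delipidated replicate 3 -1.04. Mxi1 also has alternative first exons. The upstream one, from 53310506 to 53310973, had 2 counts in control replicate 1 and 0 elsewhere, and the downstream one, from 53329413 to 53329720, had 10 counts in control replicate 2, 16 in delipidated replicate 3 and 0 elsewhere. The last part, with 40.4% of the Mxi1 counts, overlaps Gm10197 on the other strand.

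**Figure D3:**
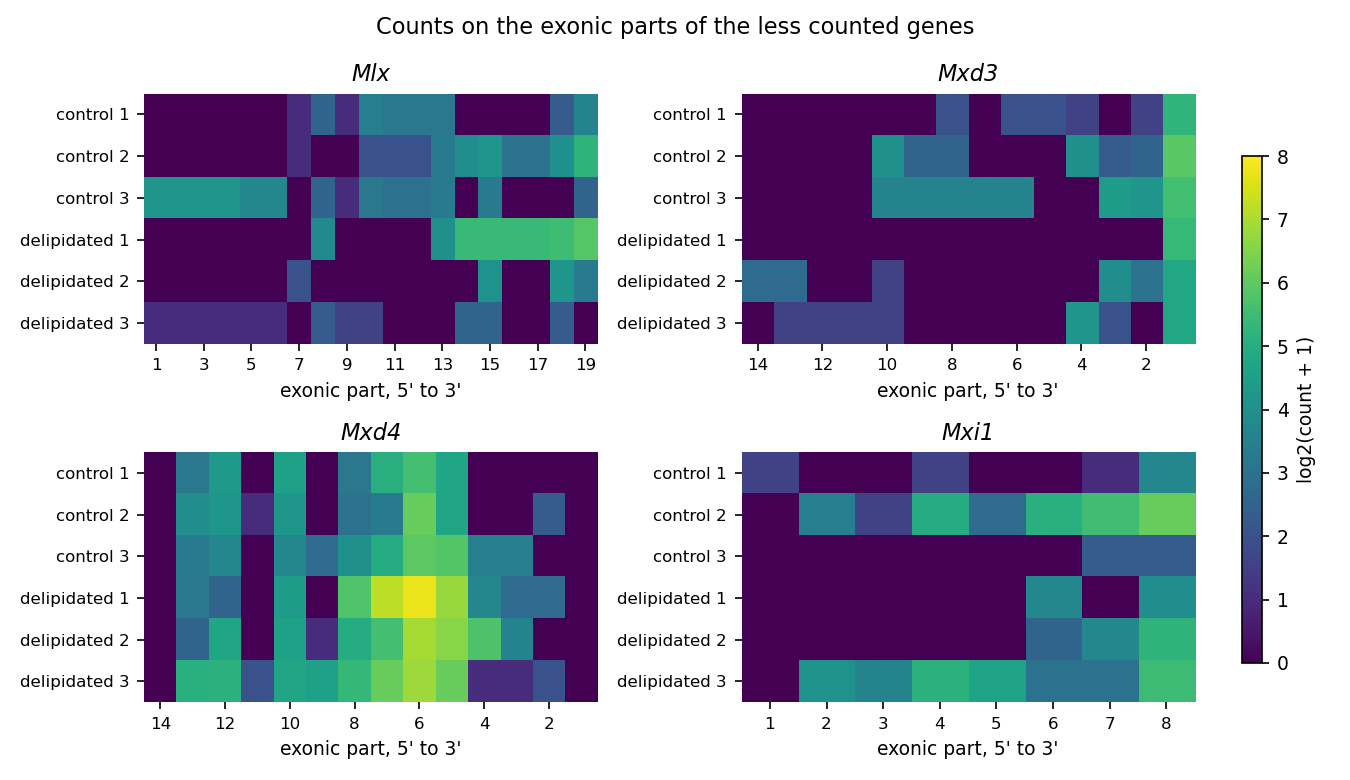
Counts on each exonic part (columns, from the 5' to the 3' end of the gene) in each library (rows) for 4 genes with low counts, coloured by log2(count + 1). Mlx is covered at different ends in different libraries, Mxd3 counts gather on part 1 at its 3' end (parts of Mxd3 and Mxd4 are numbered from the 3' end), Mxd4 differs between the groups on parts 5 to 8, and Mxi1 is covered mainly in control replicate 2 and delipidated replicate 3.

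Genes of the SIN3 corepressor, through which the MXD proteins and MNT silence their targets, were examined as a list. All 10 were tested, 0 were called by edgeR, DESeq2 or limma-voom, and 0 had an unadjusted p under 0.05 in edgeR, against 0.00% of all genes called and 1.15% higher and 1.74% lower at that p, so counts of 0 in a list this short are at the background. Their median log2 fold change was 0.0017, beside -0.00073 over all genes, with 5 values above and 5 below 0. Sin3a, the scaffold itself, had 1353, 946 and 999 CPM in control pools and 1149, 1233 and 1397 CPM in delipidated pools. These values overlapped, and Ncor1, a corepressor of nuclear receptors, between 378 and 579.7 CPM, and the histone-binding Rbbp7, between 354 and 568 CPM, did so too. Summed over the list the libraries had 3624, 3169 and 3127 CPM in control pools and 3049, 3394 and 3858 CPM in delipidated pools, and the groups overlapped.

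The MYC genes, which share MAX with all of these repressors, had low counts. Mycn had 29, 134 and 115 counts in control pools and 178, 146 and 76 counts in delipidated pools, and Myc had 23, 151 and 36 counts in control pools and 175, 92 and 64 counts in delipidated pools. Both overlapped between the groups, and control replicate 1 was the lowest library for each. Mycl had 16, 14 and 18 counts in control pools and 0, 0 and 41 counts in delipidated pools. It was thus counted in only 1 delipidated library, at a CPM level above that of each control library. Their log2 fold changes were 0.26, 0.44 and -0.31 with standard errors of 0.64, 0.76 and 1.87.

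Levels of different genes were compared as CPM per kilobase of exonic parts. A read over several parts is counted in each, so genes cut into many short parts gain counts that division by length does not remove. Mga had 56 parts, Mlxipl 36, Mlxip 24 and Max 5. Orders, percentiles and factors between genes are therefore affected, to an extent that was not tested. In the control embryos the order from the top was Max (53.8 ± 13.4, SD, n = 3), Mga (38.3 ± 9.24), Mlxip (15.3 ± 1.31), Mlxipl (9.66 ± 1.75) and Mxd1 (9.19 ± 1.23), followed by Mlx (3.76 ± 1.56), Mnt (3.46 ± 1.23), Mxd3 (3.43 ± 1.54), Mxd4 (1.598 ± 0.408) and Mxi1 (0.824 ± 1.12). Neighbours overlapped in this order except for Mga over Mlxip, Mlxip over Mlxipl, Mxd1 over Mlx and Mxd3 over Mxd4, where the lowest library of the first gene was above the highest of the second. This order depends on the parts used: per kilobase of the longest part alone Mlxip was above Mga, Mlxipl fell to rank 8 and Mxd1 to rank 9, and Mlx, Mxd3 and Mxi1 rose to ranks 4, 5 and 7. In the delipidated embryos the order began with Max (70.9 ± 21.8), Mga (37.4 ± 6.66), Mlxipl (24.5 ± 9.84) and Mlxip (13.1 ± 0.692). Mlxipl and Mlxip thus changed places, with Mlxipl the higher in each delipidated library and the lower in each control library over all parts. On the longest part alone their means did not: the delipidated mean of Mlxipl was 2.61 and that of Mlxip 4.55 CPM per kilobase. In delipidated replicate 3, however, Mlxipl was the higher in this setting (4.87 against 3.75). The longest part of Mlxipl, part 13, held 1.36% of its counts and overlaps Gm43500 on the other strand. Among 18547 protein-coding genes with counts, the control level per kilobase of Max was above 95.3% of genes, that of Mga above 92.8%, that of Mlxipl above 77.5% and that of Mxi1 above 42.7%. Per kilobase, Max exceeded Mlx by a factor of 25.9, 11.00 and 11.4 in the control and 6.24, 59.1 and 86.0 in the delipidated libraries. Of the level summed over the 10 genes, Mlxipl made up 8.18%, 6.18% and 6.42% in the control and 15.05%, 18.5% and 9.81% in the delipidated libraries, without overlap.

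**Figure D4:**
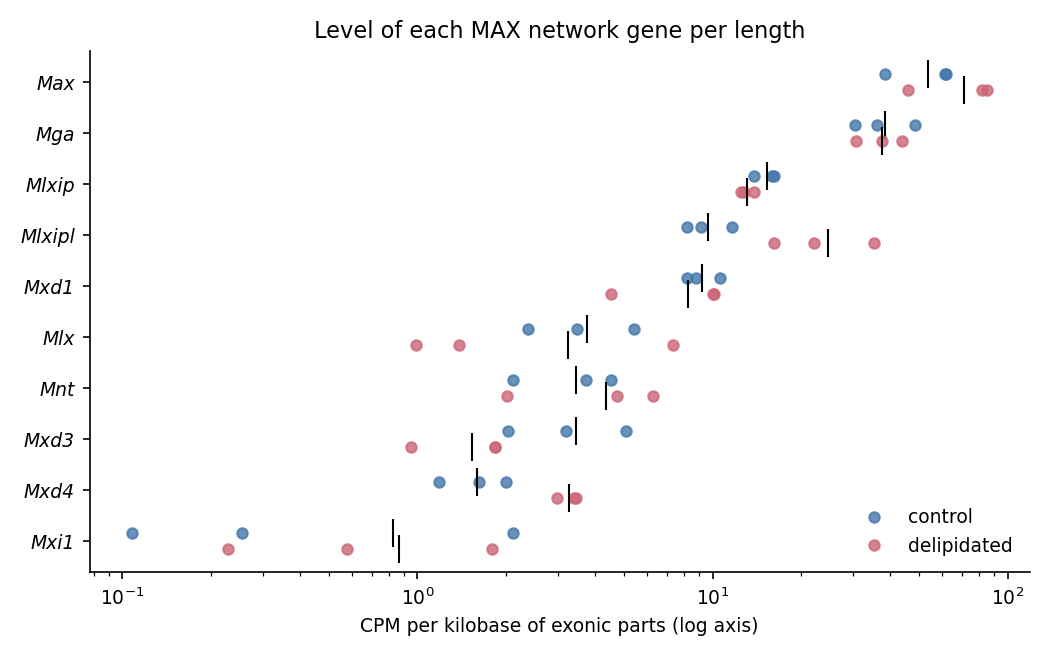
CPM per kilobase of exonic parts (logarithmic horizontal axis) of the 10 genes, ordered by their control mean; dots are libraries and black ticks are group means. Max and Mga lie at the top in both groups, and Mlxipl passes Mlxip in the delipidated embryos, which did not hold for the means on the longest part alone. Levels of different genes also depend on how finely their exons are divided into parts.

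All proteins of the network bind E-boxes, so the promoters of the 10 genes themselves were searched for the E-box CACGTG, which reads the same on both strands. The windows were those of RefSeq in GRCm38.p6, from 250 bases before to 50 bases after a gene start, and all 10 genes were matched, with 13 windows. The E-box was present in 5 of these 13 windows, 38.5%, and in 2349 of all 32851 windows of the same length, 7.15%. The windows of 5 genes held it, with 10 bases on each side shown here 5' to 3' on the strand of the gene and the E-box in capitals. They lie at chr5:135089782-135089807 (forward strand), chr11:101087240-101087265 (forward), chr12:76962236-76962261 (reverse), chr11:74830791-74830816 (forward) and chr5:34187914-34187939 (reverse).
Mlxipl, beta start: ggctgccatcCACGTGctaaggagag
Mlx: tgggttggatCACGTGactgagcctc
Max: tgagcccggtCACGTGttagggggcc
Mnt: ccacccaagcCACGTGtgcgcgcgcg
Mxd4: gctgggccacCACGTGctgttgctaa
Both genes with higher levels in all delipidated libraries, Mlxipl and Mxd4, are among them, Mlxipl only through the beta start that had no counts, as are Mlx, Max and Mnt, whose groups overlapped. A match describes letters in a window and does not show binding.

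Proteins that control where ChREBP and MondoA reside and how active they are include the 14-3-3 proteins, which hold them in the cytoplasm, the nuclear transport receptors, and the enzymes that phosphorylate or glycosylate them. All 14 genes of this list were tested, and edgeR, DESeq2 and limma-voom called 0 of them. Unadjusted p-values under 0.05 were found for 0 in the higher and 1 in the lower direction, where 1.15% and 1.74% of all tested genes had them, and the median log2 fold change was 0.067, beside -0.00073 over all genes tested. The highest mean CPM were those of the 14-3-3 genes Ywhaz, between 527 and 897 CPM, and Ywhae, between 455 and 680.5 CPM, and the nuclear export receptor gene Xpo1, between 503 and 893 CPM. Their groups overlapped. Groups that did not overlap were seen for 1 gene above and 1 below, against 3.81% and 5.05% of all tested genes, and both are named after their values were seen. Ywhab, another 14-3-3 gene, had 35.0, 45.8 and 50.6 CPM in control pools and 19.9, 26.8 and 30.3 CPM in delipidated pools, lower in each delipidated library, with a log2 fold change of -0.77 (SE 0.34; edgeR's adjusted p = 1.00). Prkaa2, which encodes a catalytic subunit of AMP-activated kinase, had 2.95, 4.54 and 6.005 CPM in control pools and 6.02, 7.99 and 9.60 CPM in delipidated pools, higher in each delipidated library by a margin that was narrow between control replicate 3 and delipidated replicate 1, with a log2 fold change of 0.80 (SE 0.62; edgeR's adjusted p = 1.00).

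Of 26 genes known as targets of ChREBP or MondoA in other tissues, 21 were tested. By edgeR, DESeq2 and limma-voom 0 were called, 0 had an unadjusted p under 0.05 in edgeR (over all genes 0.00% were called, and 1.15% were higher and 1.74% lower at that p), and the median log2 fold change was 0.015, beside -0.00073 over all genes tested, with 12 values above and 9 below 0. Among the tested targets, groups that did not overlap were seen for 0 above and 1 below, against 3.81% and 5.05% of all tested genes, so the count was near the background. The gene below was Gpd1, a glycerol 3-phosphate dehydrogenase gene that was chosen after its values were seen and had 20, 98 and 57 counts in control pools and 18, 21 and 0 counts in delipidated pools, lower in each delipidated library on the CPM scale. Summed over the list the libraries had 677, 760.2 and 839 CPM in control pools and 790.1, 675 and 859 CPM in delipidated pools, and the groups overlapped. Txnip, a target shared by ChREBP and MondoA that restrains glucose uptake, was chosen after its values were seen and had 41.3, 61.6 and 73.4 CPM in control pools and 52.1, 28.4 and 67.8 CPM in delipidated pools. Delipidated replicate 2 was the lowest library and the others overlapped. Elovl6, which lengthens fatty acids, had 58.1, 98.7 and 99.0 CPM in control pools and 123, 102 and 69.4 CPM in delipidated pools. Delipidated replicate 1 was the highest and control replicate 1 the lowest, in overlapping groups. Me1, the cytosolic malic enzyme, had 230.3, 165 and 217 CPM in control pools and 176, 176 and 298 CPM in delipidated pools. Acly, which makes cytosolic acetyl-CoA, had 69.9, 83.4 and 118 CPM in control pools and 87.1, 71.3 and 115 CPM in delipidated pools. The delipidated values of Acly lay within the control range, and those of Me1 did so except for delipidated replicate 3, the highest of all.

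The genes whose levels most resembled that of Mlxipl over the 6 libraries were sought among 8126 tested genes with a mean of at least 10 CPM. By Pearson correlation of log2(CPM + 1) the first 5 were Smad4 (r = 0.97, n = 6), Erlin1 (0.96), Ptpn18 (0.95), Anln (0.95) and Cntln (0.95). With 6 libraries in 2 groups and this many genes compared, such values describe the ranking alone, and the points share the libraries and their scaling. Ptpn18, a phosphatase gene, had 9.20, 9.55 and 10.9 CPM in control pools and 31.6, 39.4 and 22.4 CPM in delipidated pools. Smad4, which encodes the common mediator of TGF-beta signals, had 18.5, 15.6 and 19.7 CPM in control pools and 27.5, 42.5 and 23.9 CPM in delipidated pools. Erlin1, a gene of the endoplasmic reticulum membrane, had 25.3, 18.9 and 17.9 CPM in control pools and 30.3, 38.0 and 24.0 CPM in delipidated pools. In Smad4, Ptpn18, Anln and Cntln all delipidated libraries were above all control libraries, which held for 3.81% of all tested genes. In Erlin1 delipidated replicate 3 was below control replicate 1. Genes picked for likeness to Mlxipl, whose own groups were apart, tend to be apart by that choice, so this is no separate result. Among the other members with a mean of at least 10 CPM the correlation with Mlxipl was 0.78 for Mxd4, 0.50 for Max, 0.43 for Mnt, 0.016 for Mga, -0.20 for Mxd1 and -0.67 for Mlxip (n = 6 libraries each).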

How the data were processed

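RNA of 3 control and 3 delipidated pools was measured. The submitters' processing notes and the study's methods name bcl2fastq 2.20, Trimmomatic 0.36, STAR 2.5.2b, the mouse build mm10 (GRCm38) and featureCounts on unique reads within exons. The authors deposited raw counts per exonic part, without normalization; the library kit was stranded, but whether strand was used in counting is not given in the sources used here, so genes that overlap on opposite strands cannot be told apart. Of 425461 parts, 33309 carried joined identifiers of overlapping genes, and 27968 of these were assigned to the single gene whose GENCODE exons they overlap; the rest, 2.49% to 2.57% of a library's counts, was left out. None of the 10 genes has joined parts. Identifiers matched GENCODE M21 for 49384 of 49644 genes. A read over several parts is counted in each, so gene sums exceed reads and look more precise than they are. This excess is larger in genes with many short parts, also per kilobase.

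The groups were compared in edgeR 4.0.16 (R 4.3.3) with TMM, filterByExpr (minimum count 10, minimum total count 15) and the quasi-likelihood test without covariates, and p-values were adjusted by Benjamini-Hochberg over the 16020 genes tested. The common biological coefficient of variation was 0.663. Standard errors given for edgeR were derived from the test, as the absolute log2 fold change divided by the square root of its F statistic. A gene was called at an adjusted p under 0.05 with a change of more than 1 log2 unit. As an alternative, DESeq2 1.42.0 was run on all genes with counts, with its own default filter on mean count. Other alternatives were limma-voom (limma 3.58.1), other scalings, filters and countings, the replicate number as a block, and each library left out. Ratios were compared by exact permutation tests in scipy 1.17.1 (Python 3.11.15). Named genes are the 10 members, the 3 MYC genes, of each other list every gene past the threshold and the 3 tested genes with the highest mean CPM, and the 5 genes most like Mlxipl; exceptions are marked, and the choice of any further marker of other cells followed a look at its values. The members and lists were chosen with earlier results of these data known.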

Additional observations from a re-analysis of the deposited data

How the results depend on the processing

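The comparison called 0 genes higher, 0 genes lower and 0 of the 10 members under edgeR, beside 463 genes with an unadjusted p under 0.05 (619 by limma-voom), and limma-voom, another scaling, other library sizes, a mean count of at least 50, other countings and the removal of single libraries also gave 0. Without its filter on low counts, edgeR called 5 higher and 25 lower genes among 30967. DESeq2, given the same genes, called 9 and 40. It kept its own default filter on mean count, and 19443 genes had an adjusted p. Both called 1 member, Mlxipl, edgeR with an adjusted p of 0.00426 (log2 fold change 1.34) and DESeq2 with 0.0285 (log2 fold change 1.35). Over all 15 settings the adjusted p of Mlxipl ranged from 0.00426 to 1.00. The cause of this difference was not tested. Over the 6 fits that omitted 1 library, the log2 fold change of Mlxipl was between 0.98 and 1.57, that of Mlx between -1.66 and 0.21, of Mnt between -0.033 and 0.67, of Mga between -0.18 and 0.17, of Mxd1 between -0.34 and 0.13 and of Mxi1 between -1.04 and 2.25, so that only the first kept its sign among these. On the single most counted part of each gene Mga had 0.0265 and Mxd1 0.0683, opposite in sign to their summed counts, and Mnt had 0.78, the highest of its settings; the cause was not tested. Mlxip, Max, Mxd3 and Mxd4 kept their sign in all 15 settings. With the replicate block the log2 fold change of Mlxipl was 1.28 and 0 genes were called in either direction; same-numbered libraries did not deviate together (correlations of -0.13, 0.11 and 0.065), and control replicate 1 was closest to delipidated replicate 3 (0.21). Per kilobase of the longest exonic part alone, the control level of Mlxipl was 0.316 and ranked 8 instead of 4 among the members, and that of Mxd4 was 0.0333 and ranked 10. In that setting Mxd1 had 0.116 and ranked 9 instead of 5, and Mlxip (5.54) was above Mga (4.56), the reverse of their control order over all parts, Mlxipl (2.61) stayed below Mlxip (4.55) in the delipidated mean, and Mlx, Mxd3 and Mxi1 rose to control ranks 4, 5 and 7. Standard errors were between 0.70 and 1.10 on the log2 scale for Mlx, Mxd3 and Mxi1, members with few counts, and whether depth or the spread between pools set them was not tested. Depth limits what can be said of the upstream first exon of Mlxipl, which had 0 counts.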
